A study of Oryctolagus cuniculus with 8 samples.

Results

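The miR-34/miR-449 family was followed in small RNA from extracellular vesicles of the rabbit oviduct and uterus. Such vesicles are small membrane-bound particles shed by cells. Members were all mature names of the deposited count table for miR-34a, miR-34b, miR-34c and miR-449a to miR-449d, on either arm of the hairpin, which gave 10 of the 579 names. These 10 came from 5 hairpins, with no name matched for miR-449c or miR-449d. Reads were found for 7 of the 10 names, and miR-34a-3p, miR-449a-3p and miR-449b-3p had 0 reads in every library. The family held 80698 of 2359229 miRNA reads, most of them from ocu-miR-34c-5p, ocu-miR-34b-3p and ocu-miR-34b-5p, with 43739, 28481 and 6345 reads. The species prefix ocu is left out below.

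The libraries came from wild-type, multiparous California x New Zealand white does. All 21 does had received eCG (25 IU), a gonadotropin that synchronises the ovaries, and ovulation was induced after 48 h with a GnRH analogue (20 µg). Both groups were collected 14 to 15 h after that injection. The oviductal group had 5 libraries, each from a pool of 3 animals, and the uterine group had 3 libraries, each from a pool of 5 animals. Their replicates are numbered 1 to 5 and 12, 3 and 4. Uterine replicate 12 is library number 1 of its group, and the labels do not say if that title stands for material of several replicates. The pools had 30 places for 21 does, so some does must have served more than 1 pool. Which ones is not given, so pools of the same or of different groups may share does. The tests treat pools as independent, and their p-values measure the spread between pools. The libraries held 42684 to 569087 miRNA reads, with oviductal replicates 2 and 3 the shallowest at 47598 and 42684. A level is given in CPM, the reads of a miRNA per 1000000 miRNA reads of its library, with 1 row counted per name. In those 2 libraries 3 reads, the most that a count of 0 allows, amounted to 63.0 and 70.3 CPM, against 5.27 CPM in oviductal replicate 5, the deepest.

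A miRNA hairpin is cut into a 5p and a 3p arm, and the arm loaded into an Argonaute protein guides the repression of messenger RNAs through its seed, bases 2 to 8. The 5p arms of the miR-34 and miR-449 hairpins have nearly the same seed region. In multiciliated cells, which line the oviduct and parts of the uterine epithelium, these miRNAs repress CCP110, a centriole protein that blocks cilium formation. Mice without miR-34b/c and miR-449 have too few motile cilia and are infertile. miR-34a is also known as a transcriptional target of p53. A small RNA table holds no messenger RNA of cilia, so whether the reads came from multiciliated cells was not tested.

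The hairpins lie in 3 places of the rabbit genome. In the RefSeq gene table of assembly mOryCun1.1, in which all 5 hairpins were matched by name, mir-34b and mir-34c are nearest neighbours within the span of BTG4, an adaptor for removal of maternal messenger RNA in oocytes and early embryos. HOATZ, a gene of cilia and flagella, is the next gene to them. mir-449a and mir-449b lie within the span of CDC20B, a gene expressed in multiciliated cells, and MCIDAS and CCNO, which drive the multiciliated fate, are among the 6 nearest genes. mir-34a stands apart from both clusters. The counts were made on another build, OryCun2.0, so no coordinates are given.

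The family took 3.08%, 2.77%, 3.41%, 3.16% and 6.14% of reads in oviductal replicates 1 to 5, and 0.496%, 3.39% and 1.34% in uterine replicates 12, 3 and 4. Uterine replicate 3 lay within the oviductal range, while uterine replicates 12 and 4 lay below all 5 oviductal libraries. The 95% Wilson intervals of these 2 libraries, 0.468% to 0.525% and 1.30% to 1.38%, did not reach the lowest oviductal one, 2.63% to 2.92% in replicate 2. Such intervals, and limits from a count of 0, cover counting error only. The means were 3.71% ± 1.38 (SD, n = 5) in oviductal and 1.74% ± 1.49 (SD, n = 3) in uterine vesicles. A sum over chosen members was not tested. A share of reads also falls where other miRNAs take more reads. For a lower share, this, fewer vesicles from a cell type and fewer miRNA copies per vesicle cannot be told apart in such pools.

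miR-34c-5p, the leading arm of the miR-34c hairpin, was the most abundant member in all 8 libraries and gave 54.2% of all family reads. Its level was 17204, 15652, 15345, 19278 and 30016.5 CPM in oviductal replicates 1 to 5, and 3225, 20164 and 7988 CPM in uterine replicates 12, 3 and 4. Oviductal replicate 5 stood highest, and uterine replicate 3 lay above 4 of the 5 oviductal libraries. Among all names it ranked 11 to 16 by reads in oviductal and 10 to 22 in uterine libraries. The mean was 19499 ± 6083 CPM in oviductal (SD, n = 5) and 10459 ± 8736 CPM in uterine vesicles (SD, n = 3). The oviductal libraries spanned 1.96-fold and the uterine ones 6.25-fold.

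miR-34b-3p, the arm opposite the seed-sharing one, followed miR-34c-5p in every library, with 35.3% of family reads. Its level was 10054, 8887, 14783, 9301 and 26240.3 CPM in oviductal replicates 1 to 5, and 1075, 9192 and 3522 CPM in uterine replicates 12, 3 and 4. The lowest oviductal library, replicate 2, was just below uterine replicate 3, so the groups overlapped by that library alone. The mean was 13853 ± 7317 CPM in oviductal (SD, n = 5) and 4596 ± 4164 CPM in uterine vesicles (SD, n = 3). In oviductal replicate 3 the counting intervals of miR-34c-5p and miR-34b-3p, 1.42% to 1.66% and 1.37% to 1.60% of reads, overlapped, so their order there is not resolved.

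miR-34b-5p came next in every library, with 7.86% of family reads. Its level was 2328, 2626, 2811, 2541 and 4061 CPM in oviductal replicates 1 to 5, and 649, 3482 and 1002 CPM in uterine replicates 12, 3 and 4. Here uterine replicate 3 was above 4 oviductal libraries and the other uterine libraries were below all of them. The means were 2874 ± 686 CPM (SD, n = 5) and 1711 ± 1544 CPM (SD, n = 3). Adapters join different small RNAs with different efficiency, so the order of reads among members need not be the order of molecules.

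miR-34c-3p, the minor arm of its hairpin, was at 1026, 546, 539, 232 and 866 CPM in oviductal replicates 1 to 5, and at 923 and 288 CPM in uterine replicates 3 and 4. In uterine replicate 12 it had 0 reads, which allows up to 12.9 CPM, below all the other libraries. It ranked above miR-34a-5p in 6 of 8 libraries.

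**Figure D1:**
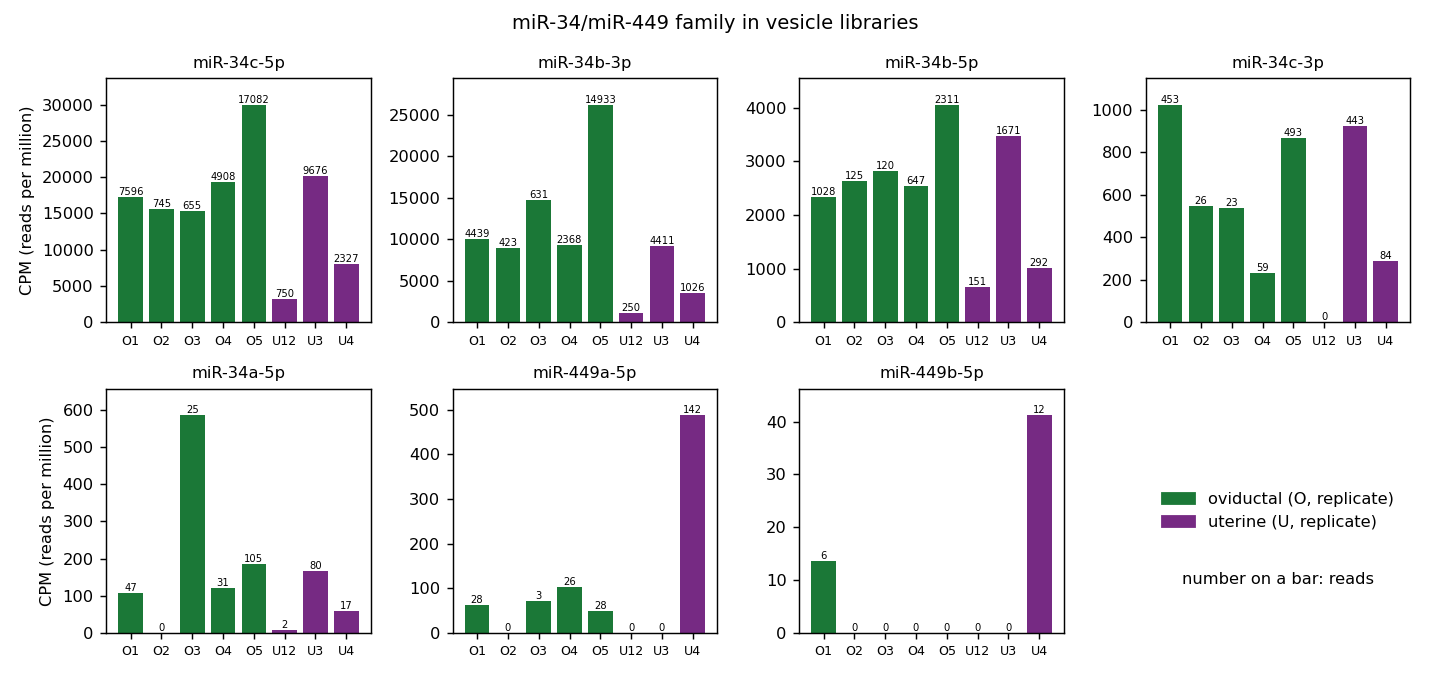
Level of the 7 detected members in CPM (vertical axis, linear, own scale in each panel) in each library (horizontal axis, O oviductal and U uterine with the replicate number), with the read count printed on each bar. Uterine replicates 12 and 4 are lowest for miR-34c-5p, miR-34b-3p and miR-34b-5p, while uterine replicate 3 reaches oviductal levels, 20164 CPM for miR-34c-5p.

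The series compares the vesicle miRNAs of the oviduct with those of the uterus. With all 8 libraries none of the 6 tested members passed edgeR's quasi-likelihood test at an adjusted p of 0.05, over a background of 3 called among 178 miRNAs (1.69%). None passed by DESeq2 or limma-voom either, which called 6.18% and 0.562% of all tested miRNAs. DESeq2 gave no adjusted p for miR-34b-5p and miR-449a-5p, so it gave no verdict on these members. An unadjusted p under 0.05 was found for 0 members by edgeR, 0 by DESeq2 and 1 by limma-voom, miR-34b-3p at a log2 fold change of -1.58 (limma-voom adjusted p 0.0965). By edgeR miR-34b-3p was at a log2 fold change of -1.05 ± 0.65 (SE), uterine over oviductal, with an adjusted p of 0.488. miR-34c-5p was at -0.39 ± 0.56 (adjusted p 0.825), miR-34b-5p at -0.18 ± 0.58 (0.938) and miR-34c-3p at -0.14 ± 1.09 (0.978). Over the 6 tested members 5 values were negative and 1 was positive, with a median of -0.28, against 91 negative and 87 positive values with a median of -0.02 over all tested miRNAs. These errors leave room for sizeable differences, in either direction for miR-34c-5p, miR-34b-5p and miR-34c-3p. For miR-34b-3p they leave more room for a lower uterine level than for a higher one.

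Scaling touched these values. The trimmed mean scaling (TMM) used by edgeR raised uterine replicate 3, with a factor of 0.666, and on that scale miR-34c-5p stood at 30291 CPM there, above the oviductal maximum of 27147. The scaled values of the groups overlapped for all 6 tested members. Over all 178 tested miRNAs, 24 (13.5%) had groups that did not overlap. At so low a share, overlap in all 6 does not set the members apart. With no scaling beyond library totals, the log2 fold changes of miR-34c-5p, miR-34b-3p and miR-34b-5p were -0.90, -1.59 and -0.75 (edgeR adjusted p 0.379, 0.160 and 0.549), while the median of all tested miRNAs moved from -0.02 to -0.31.

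A single uterine library decided the comparison. Without uterine replicate 3 miR-34b-3p was at a log2 fold change of -2.71, miR-34c-5p at -1.92 and miR-34b-5p at -1.85, and all 3 passed (edgeR adjusted p 0.00463, 0.0127 and 0.0353). In that fit 15 of 200 tested miRNAs were called lower (7.5%) and 27 called in all (13.5%). The 3 further tested members did not pass there, with miR-34c-3p at -2.45 (0.217), miR-34a-5p at -2.57 (0.320) and miR-449a-5p in the other direction at 1.77 (0.490). It rests on 2 uterine libraries, so the pass describes uterine replicates 12 and 4 only. Without uterine replicate 12 or 4 the value of miR-34c-5p was -0.035 or -0.028, and that of miR-34b-5p turned positive, to 0.14 or 0.25. miR-34b-3p kept a negative value without each library in turn, between -2.71 and -0.66.

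**Figure D2:**
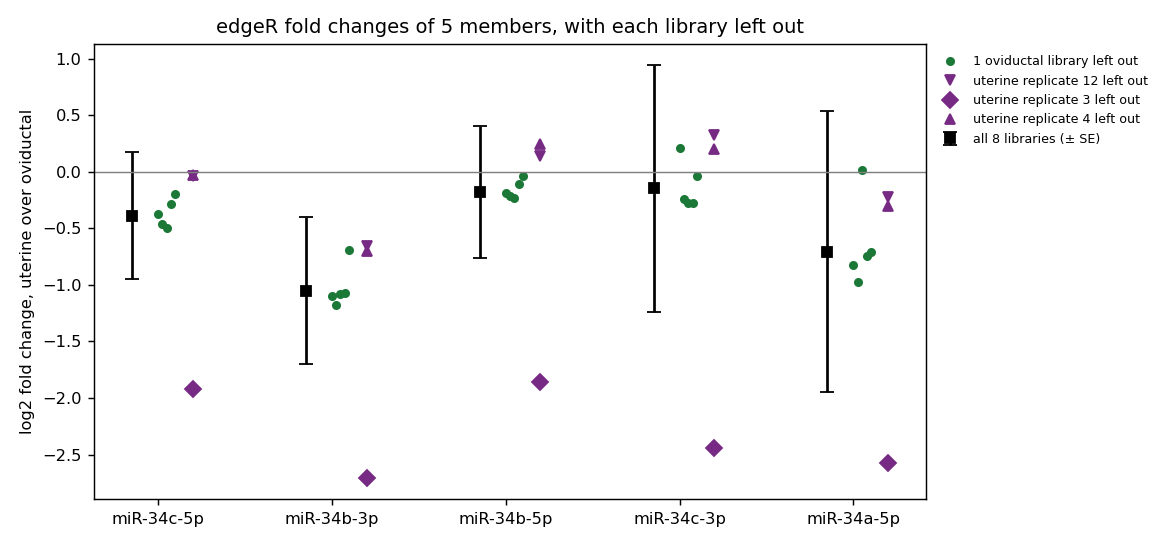
Log2 fold change of 5 members by edgeR, uterine over oviductal (vertical axis), with all 8 libraries (black squares, bars ± SE) and with each library left out (green, oviductal; purple, uterine). The purple diamonds, without uterine replicate 3, lie lowest for each member, at -1.92 for miR-34c-5p and -2.71 for miR-34b-3p; miR-449a-5p, at 1.26 with all libraries and between -6.88 and 1.77 with each left out, is off the scale and not plotted.

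The arms of the hairpins were read in different proportions. In the miR-34b hairpin the 3p arm gave most reads in every library. It made up 81.2%, 77.2%, 84.0%, 78.5% and 86.6% of the hairpin's reads in oviductal replicates 1 to 5, and 62.3%, 72.5% and 77.8% in uterine replicates 12, 3 and 4. Uterine replicates 12 and 3 were below every oviductal library. The counting interval of uterine replicate 12, 57.5% to 66.9%, did not reach that of the lowest oviductal library, replicate 2 (73.5% to 80.5%), while that of uterine replicate 3, 71.4% to 73.6%, just touched it. Uterine replicate 4 lay inside the oviductal range. The means were 81.5% ± 3.87 (SD, n = 5) and 70.9% ± 7.88 (SD, n = 3). On the log2 scale the ratio of 5p to 3p was higher in uterine vesicles by 0.85 ± 1.08 (SE), which did not pass limma over 80 hairpins (adjusted p 0.851). No hairpin passed that test (0% called, with 6 at an unadjusted p under 0.05).

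In the miR-34c hairpin the 3p arm was the minor one in every library. It made up 5.63%, 3.37%, 3.39%, 1.19% and 2.81% of the hairpin's reads in oviductal replicates 1 to 5, and 4.38% and 3.48% in uterine replicates 3 and 4. In uterine replicate 12 it had 0 of 750 reads, which allows a share of up to 0.4%. The Wilson interval there reached 0.510%, short of the 0.922% to 1.53% of oviductal replicate 4, the next lowest. The log2 ratio of 5p to 3p differed by 1.56 ± 1.31 (SE; limma adjusted p 0.752), and without uterine replicate 12 the difference turned to -0.42 (0.919).

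**Figure D3:**
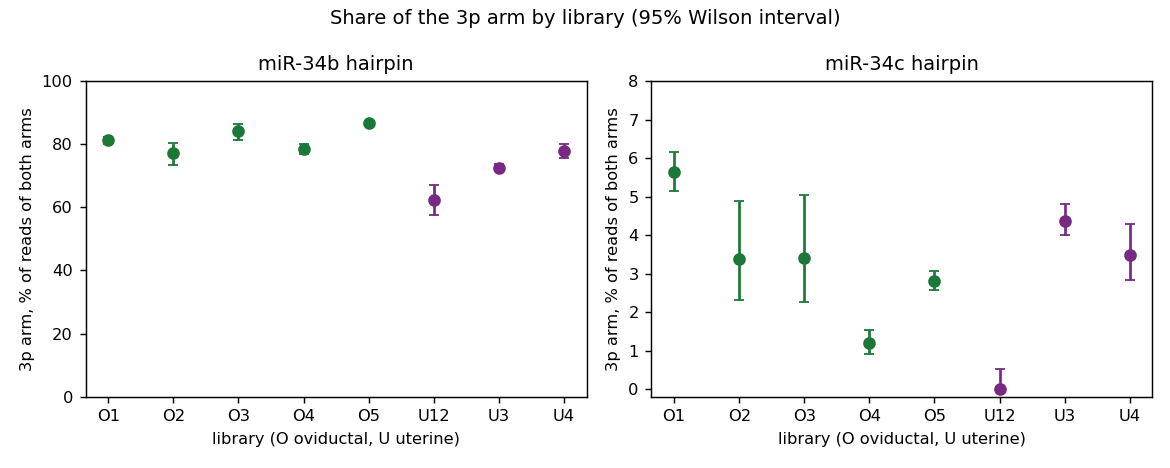
Share of the 3p arm among the reads of both arms, in percent (vertical axes, on different scales), for the miR-34b and miR-34c hairpins in each library (horizontal axis), with 95% Wilson intervals. The miR-34b share is lowest in uterine replicate 12 at 62.3%, and the miR-34c share is 0 in that library.

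Ratios between members of the same library do not depend on scaling. The 3 members with at least 10 reads in every library, miR-34c-5p, miR-34b-3p and miR-34b-5p, gave 3 ratios, and miR-34c-5p was also set against miR-200c-3p. The latter keeps epithelial cells epithelial by repressing ZEB1 and ZEB2. The reads of miR-34c-5p over those of miR-34b-3p were 1.71, 1.76, 1.04, 2.07 and 1.14 in oviductal replicates 1 to 5, and 3.00, 2.19 and 2.27 in uterine replicates 12, 3 and 4. The groups did not overlap, and uterine replicate 3 lay on the uterine side. The log2 difference was 0.72 ± 0.28 (SE). The exact two-sided permutation p was 0.0536, or 0.0952 adjusted over the 4 ratios, where the smallest p of the 56 splits is 0.0179. Among all 2926 pairs of miRNAs with at least 10 reads in every library, 355 (12.1%) had ratios whose groups did not overlap.

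The ratio of miR-34b-3p to miR-34b-5p is the arm ratio of the miR-34b hairpin turned over. It was 4.32, 3.38, 5.26, 3.66 and 6.46 in oviductal replicates 1 to 5, and 1.66, 2.64 and 3.51 in uterine replicates 12, 3 and 4. The groups overlapped through uterine replicate 4, and the log2 difference was -0.85 (exact two-sided permutation p 0.0536, adjusted 0.0952). Its SE was 0.32 from the spread of this ratio alone and 1.08 in the limma fit, which draws the error towards that of all 80 hairpins. miR-34c-5p over miR-34b-5p, 5.46 to 7.59 in oviductal and 4.97 to 7.97 in uterine libraries, differed by -0.13 ± 0.20 on the log2 scale (SE; exact two-sided permutation p 0.554). The log2 differences of the 3 ratios add up, so they are not independent. Of all family reads miR-34b-3p made up 29.5% to 43.3% in oviductal libraries and 21.7% to 27.1% in uterine ones.

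miR-34c-5p over miR-200c-3p was 0.346, 0.433, 0.459, 0.534 and 0.713 in oviductal replicates 1 to 5, and 0.752, 0.891 and 0.621 in uterine replicates 12, 3 and 4. Only uterine replicate 4 lay within the oviductal range, below oviductal replicate 5. The log2 difference was 0.63 ± 0.26 (SE; exact two-sided permutation p 0.0714, adjusted 0.0952). This ratio was taken for miR-200c-3p alone, which was itself at a log2 fold change of -1.13, uterine over oviductal. Of the 6 tested names of other epithelial miRNAs, miR-200c-3p among them, 4 were negative and 2 positive, with a median of -0.65. The 2 positive ones, named after their values were seen, were miR-141-3p at 0.30 and miR-184-3p at 4.39. None of the 6 was past the threshold of edgeR. Ratios to the other epithelial names were not tested. None of the 4 ratios passed after adjustment.

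**Figure D4:**
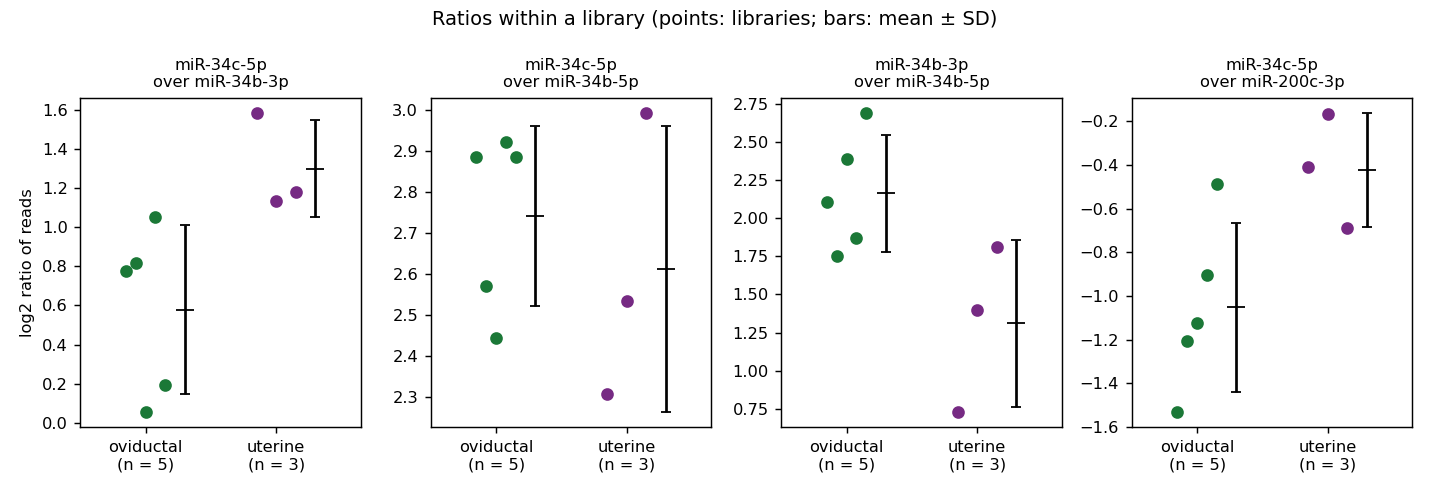
Log2 ratio of the reads of a pair of miRNAs within each library (vertical axes, on different scales) in the oviductal (n = 5) and uterine (n = 3) groups, with mean ± SD beside the points. In the first panel all 3 uterine libraries, at ratios of 2.19 to 3.00, lie above the oviductal maximum of 2.07.

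The remaining members were far less abundant. miR-34a-5p had 47, 0, 25, 31 and 105 reads in oviductal replicates 1 to 5, or 106, 0, 586, 122 and 185 CPM, and 2, 80 and 17 reads in uterine replicates 12, 3 and 4, or 8.60, 167 and 58.4 CPM. The highest level was in the shallow oviductal replicate 3, and the count of 0 in the equally shallow replicate 2 allows up to 63.0 CPM, above the levels in uterine replicates 12 and 4. The log2 fold change was -0.71 ± 1.24 (SE; edgeR adjusted p 0.842), and 0.020 without oviductal replicate 3.

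miR-449a-5p, the best known multiciliated member, had 28, 0, 3, 26 and 28 reads in oviductal replicates 1 to 5, and 0, 0 and 142 reads in uterine replicates 12, 3 and 4. That is 49.2 to 102 CPM in the 4 oviductal libraries with reads and 487 CPM in uterine replicate 4. Uterine replicate 3, which had the highest miR-34c-5p of its group, allows at most 6.25 CPM of miR-449a-5p. Its share of family reads was 3.64% in uterine replicate 4 and at most 0.323% in any oviductal library. The log2 fold change of 1.26 ± 1.52 (SE; edgeR adjusted p 0.798) rested on that library. Without uterine replicate 4 both remaining uterine libraries were at 0 and the fitted value was negative.

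miR-449b-5p had 6 reads in oviductal replicate 1 and 12 in uterine replicate 4, and 0 elsewhere. It did not pass the filter on low counts. Both libraries also held miR-449a-5p, from the neighbouring hairpin.

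The levels of miR-34c-5p and miR-34b-5p followed each other over the 8 libraries, with Pearson's r = 0.97 and Spearman's rho = 0.95 for log2 CPM. miR-34b-3p followed miR-34c-5p at r = 0.94, miR-34c-3p at 0.84 and miR-34a-5p at 0.57, while miR-449a-5p was at -0.03. The median r with miR-34c-5p was 0.16 over 177 miRNAs. Outside the family the 5 miRNAs most like miR-34c-5p were miR-129-3p (r = 0.91), miR-100-5p (0.91), miR-200c-3p (0.90), miR-190b-5p (0.90) and miR-7180-3p (0.90). Without uterine replicates 12 and 4, the 2 libraries farthest from the median of miR-34c-5p, r was 0.93 for miR-34b-5p, 0.70 for miR-34b-3p, 0.90 for miR-100-5p and 0.49 for miR-200c-3p. These values describe 8 libraries that share scaling and a group difference, and carry no test.

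Lists of other cell types were read in the same libraries. Other epithelial miRNAs (miR-200 family, miR-141, miR-205, miR-375, miR-203 and miR-184) made up 5.43% to 6.26% of oviductal reads, and 1.19%, 3.20% and 1.98% of reads in uterine replicates 12, 3 and 4. The uterine libraries thus had the same order as for the miR-34/miR-449 family, but here uterine replicate 3 stayed below the oviductal range. Of 10 names 7 were detected and 6 tested, 4 with negative and 2 with positive values (median -0.65, none past the threshold of edgeR). No reads were matched for miR-200a, miR-200b, miR-429 or miR-203. Names missing from the deposited table and names without reads were not told apart here. Of the miR-200 family the share therefore held miR-200c and miR-141 only.

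Muscle miRNAs (miR-143, miR-145, miR-1 and miR-133) made up 0.381% to 0.471% of oviductal reads, and 2.54%, 0.560% and 4.69% in uterine replicates 12, 3 and 4. The 2 uterine libraries low in the miR-34/miR-449 family were thus the 2 highest in muscle miRNAs, though uterine replicate 3 was also above every oviductal library. Of 10 muscle names 6 were detected and 4 tested, all with positive values and 1 past the threshold of edgeR, where 87 of the 178 tested miRNAs were positive and 1.69% were called. miR-133b had no matched reads. Erythrocyte miRNAs made up 0.0922% to 0.288% of oviductal reads, and 0.362%, 0.123% and 0.768% in uterine replicates 12, 3 and 4. Here uterine replicates 12 and 4 were above every oviductal library and uterine replicate 3 was not. Of 5 names 4 were detected and 2 tested, both with positive values (median 1.30). Leukocyte miRNAs made up 0.102% to 0.245% of oviductal reads, and 0.144%, 0.0786% and 0.367% in uterine replicates 12, 3 and 4, of which only replicate 4 was above the oviductal range. Of 10 names 6 were detected and 4 tested, all with positive values (median 1.82), and no tested name of either list passed the threshold of edgeR. The part of these cell types in the family's levels was not tested.

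**Figure D5:**
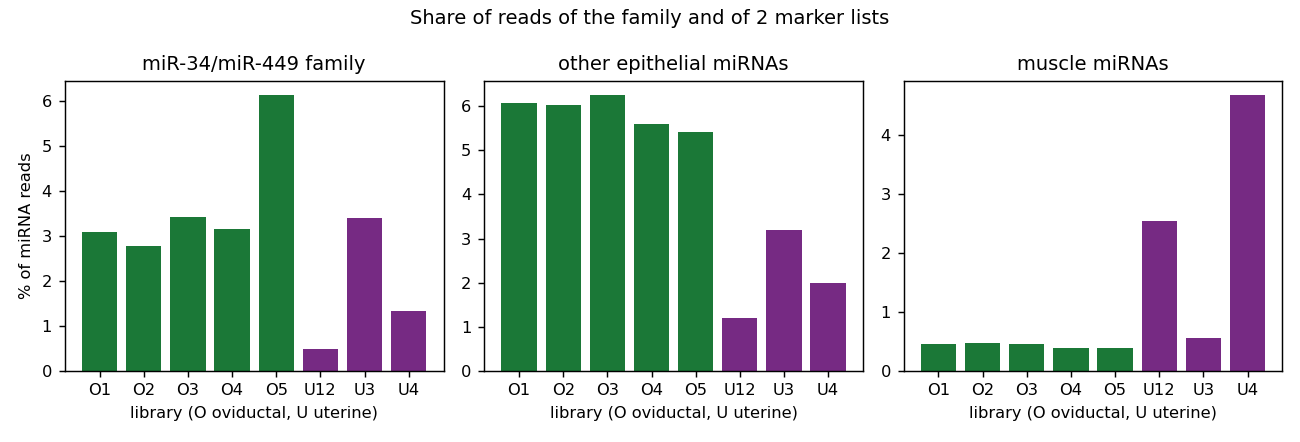
Share of miRNA reads, in percent (vertical axes, on different scales), of the miR-34/miR-449 family, of other epithelial miRNAs and of muscle miRNAs in each library (horizontal axis). Uterine replicate 3 has 3.39% in the family, 3.20% in other epithelial miRNAs and 0.560% in muscle miRNAs, against 1.34%, 1.98% and 4.69% in uterine replicate 4.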

How the data were processed

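Members and lists were chosen with earlier results of these data known. The deposited table holds raw read counts of each mature miRNA by hairpin. The authors' RPM beside them differed by at most 0.005 from the count divided by its column sum. The submitters' processing notes name OryCun2.0 and FastQC, and which aligner and counter made the counts is not given in the sources. Flushes were spun, filtered and passed over a size exclusion column, per the labels' protocols. The flush volume was 1.0 mL for the oviductal and 2.2 mL for the uterine group, so its part cannot be told apart from that of the group. Each name was represented by its row of most reads, and no member stood on several rows. CPM and shares printed here are over the reads of these rows, 441531 of 495232 in oviductal replicate 1. The levels of members with reads therefore lie above the authors' RPM. The family share differed by -1.97 percentage points, uterine minus oviductal, and by -1.67 with the rows of a name summed.

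The groups were compared by edgeR 4.0.16 (quasi-likelihood, TMM, filterByExpr, Benjamini-Hochberg over 178 miRNAs), and DESeq2 1.42.0 and limma-voom (limma 3.58.1) were alternatives. Log2 arm ratios (pseudocount 0.5) used limma over 80 hairpins with at least 10 reads over both arms in every library. Ratios of 2 miRNAs used exact two-sided permutation over 56 splits. Printed CPM are not TMM-scaled unless stated, and log2 CPM for correlations had a prior count of 2. Only the edgeR fit and the limma fit of arm ratios were tried on simulated data, in which pools were independent. The members named were all those with a read, and outside the family the 5 miRNAs of highest r with the most abundant member, and miR-200c-3p. No batch is labelled.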

Additional observations from a re-analysis of the deposited data

Results flagged for a closer look

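Of 14 sets of 5 oviductal values, 3 had oviductal replicate 5, the deepest library, far from the others by Dixon's criterion, where chance flags about 1 in 20: its family share of 6.14% stood above 2.77% to 3.41% in the others, its miR-34c-5p of 30016.5 CPM above 15345 to 19278 CPM, and its miR-34b-5p of 4061 CPM above 2328 to 2811 CPM. These 3 sets share reads and are not independent. The level of miR-449b-5p, 13.6 CPM from 6 reads in oviductal replicate 1, met the criterion only by construction, since the other 4 oviductal libraries had 0 reads.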

How the results depend on the processing

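The count of 3 called miRNAs was 6 with upper-quartile factors, 1 with library totals, 13 with no filter, 8 with at least 10 reads in every library, 11 by DESeq2, 1 by limma-voom and 7 with repeated rows summed. It was 0 without the 2 shallowest libraries (edgeR, 20 at an unadjusted p under 0.05), and 1 to 27 without each library in turn, the highest without uterine replicate 3. Without each library in turn the log2 fold change ran from -1.92 to -0.028 for miR-34c-5p, -2.71 to -0.66 for miR-34b-3p, -1.85 to 0.25 for miR-34b-5p, -2.45 to 0.33 for miR-34c-3p, -2.57 to 0.020 for miR-34a-5p and -6.88 to 1.77 for miR-449a-5p. No member passed except the 3 without uterine replicate 3. By limma-voom miR-449a-5p was at -1.88, and the cause was not tested. The arm difference of miR-34c ran from -0.42 to 2.64 and was -0.22 with precision weights, which give uterine replicate 12 little weight. The log2 difference, uterine minus oviductal, in the ratio of miR-34c-5p to miR-34b-5p ran from -0.32 to 0.021. That in the ratio of miR-34c-5p to miR-34b-3p ran from 0.58 to 0.84. For miR-34b-3p to miR-34b-5p it ran from -1.10 to -0.56. The difference in family share ran from -2.80 to -1.35 percentage points.

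Libraries of the same number showed no joint deviation over 178 miRNAs. The correlations of deviations were -0.15, -0.17 and -0.08 for library numbers 1, 3 and 4, and no uterine library correlated best with its own number. Deviations were taken from the mean of each group, which ties the 3 uterine libraries to each other. These correlations therefore cannot show whether pools shared does. With a replicate block, by sample title or by library name, 0 miRNAs were called (edgeR, 8 and 11 at an unadjusted p under 0.05). In these fits only libraries whose number occurs in both groups inform the comparison. By title these are replicates 3 and 4, and by library name numbers 1, 3 and 4. So few libraries leave little room for any call, so the 0 calls cannot show whether pairing matters. With the block by title miR-34c-3p was at 0.87 and miR-449a-5p at -0.88, and with that by library name miR-449a-5p was at -3.30. Low counts limit miR-34a-5p and both miR-449 members. For miR-449a-5p the counts did not follow depth in the uterine group. It had 0 reads in uterine replicate 3, with 479865 miRNA reads, and 142 in uterine replicate 4, with 291328.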
